A study of Mus musculus with 14 samples.

Results

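Morc1 is a mouse gene of 199669 bases that lies between the pluripotency genes Dppa4 and Dppa2 on one side and the T cell gene Trat1 on the other, at 48431237 to 48630905 on chromosome 16 (mm10). Its contacts were read from the 21 bins of 10 kb that touch the gene, starting at 48430001 to 48630001, of the 535 bins in each contact matrix. Bins are numbered from the left end of the gene. The left part is bins 1 to 10, the right part is bins 12 to 21, and bin 11 belongs to neither. The last bin holds only the final stretch of the gene, and the long non-coding RNA gene Gm41458 lies inside the right part.

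Each group was 1 matrix in which the authors had combined replicates: mouse embryonic stem cells (mESC) after 2 days of auxin, and untreated mESC. In cells engineered for it, auxin makes the cell degrade a protein that carries a degron tag. Neither the tagged protein nor the engineered line is given in the sources used here. The series studied elements that control DNA replication, and it has 14 labelled samples, in 10 groups, made by Hi-C enriched for this interval and all from Cas/129 hybrid cells: mESC, NPC, and mESC lines named for deletions or an inversion. No label names an auxin-treated or untreated sample, so no labelled group entered a comparison, and the matrices do not separate the parental copies of the chromosome.

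Morc1 encodes a nuclear ATPase of the MORC family that silences transposons and is needed for meiosis in the male germline of the mouse. In Hi-C, neighbouring stretches of chromatin are ligated and sequenced as read pairs, so a bin pair linked by many reads was often in contact. Contact falls steeply with distance along the chromosome, and a boundary is a place that few contacts pass over. A long gene can therefore lie within one domain, whose parts touch each other freely, or be divided by a boundary.

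The auxin matrix corresponded to 433895 read pairs and the untreated matrix to 439849. Of the pairs that linked bins at least 20 kb apart, 34223 touched Morc1 in the auxin matrix (9.19%) and 31316 in the untreated matrix (8.32%). The Morc1 bins held 48 to 4150 pairs in the auxin matrix (median 2328) and 45 to 3913 in the untreated matrix (median 2265). Bin 11, starting at 48530001, was the only one with under 100 pairs. Over all 535 bins the median was 1532 pairs in the auxin matrix and 1542 in the untreated matrix. Contact is given as observed over expected: the summed contact of an area divided by the sum expected from the mean at each distance in the same matrix, so that 1 is the average at that distance. Values in brackets are 95% intervals for counting error alone. Each condition has a single pooled matrix, so there is no replicate check: every difference is one between these libraries, and "higher" or "lower" describes values only.

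The first question was whether contacts within the gene body differed. At the settings used here, the values differed by less than the counting error. Contact between Morc1 bins was 1.05 times the expected level in the auxin matrix (0.996 to 1.11; 5187 pairs) and 1.07 in the untreated matrix (1.01 to 1.12; 5516 pairs), a log2 ratio of auxin over untreated of -0.017 (-0.12 to 0.089). Within the left part contact was 0.952 in the auxin matrix and 0.993 in the untreated matrix (log2 -0.06, -0.19 to 0.07). Within the right part it was 1.14 in the auxin matrix and 1.08 in the untreated matrix (0.084, -0.11 to 0.28). Between the parts it was 1.17 in the auxin matrix and 1.23 in the untreated matrix (-0.065, -0.20 to 0.069). All 4 intervals held 0. This depended on the balancing and the distance limit: after the matrices were balanced again the log2 ratio was -0.19 (-0.34 to -0.038) over the whole gene, -0.27 (-0.40 to -0.14) within the left part and -0.21 (-0.35 to -0.069) between the parts. With pairs at least 50 kb apart it was -0.27 (-0.52 to -0.028) within the left part.

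Contact within the gene was above average at its longer distances. As a whole it was not unusual: 161 of 474 other stretches of 21 bins were at or above Morc1 in the auxin matrix, and 157 in the untreated matrix. Pairs of Morc1 bins 20 to 50 kb apart had 0.996 times the expected contact in the auxin matrix and 0.993 in the untreated matrix. Pairs 110 to 150 kb apart had 1.20 in the auxin matrix (1.09 to 1.31) and 1.26 in the untreated matrix (1.16 to 1.38). Pairs 160 to 200 kb apart had 1.49 in the auxin matrix (1.33 to 1.66) and 1.47 in the untreated matrix (1.31 to 1.64). Contact of the first 3 bins with the last 3, the ends of the gene, was 1.51 in the auxin matrix (1.30 to 1.75, 241 pairs) and 1.45 in the untreated matrix (1.26 to 1.67, 251 pairs). All 9 of these bin pairs are among the 15 of the 160 to 200 kb range, so the values are not separate observations. With the 19 bins that lie whole within the gene, contact of the ends was 1.21 in the auxin matrix and 1.35 in the untreated matrix. The ends of 436 other stretches of 21 bins, none of which overlaps Morc1, had a median of 1.00 in the auxin matrix and 0.989 in the untreated matrix. In those stretches 14 auxin values and 17 untreated values were at or above those of the 21 Morc1 bins (1.51 auxin, 1.45 untreated). Stretches that overlap each other share bins, so these counts describe the interval and are no test.

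**Figure D1:**
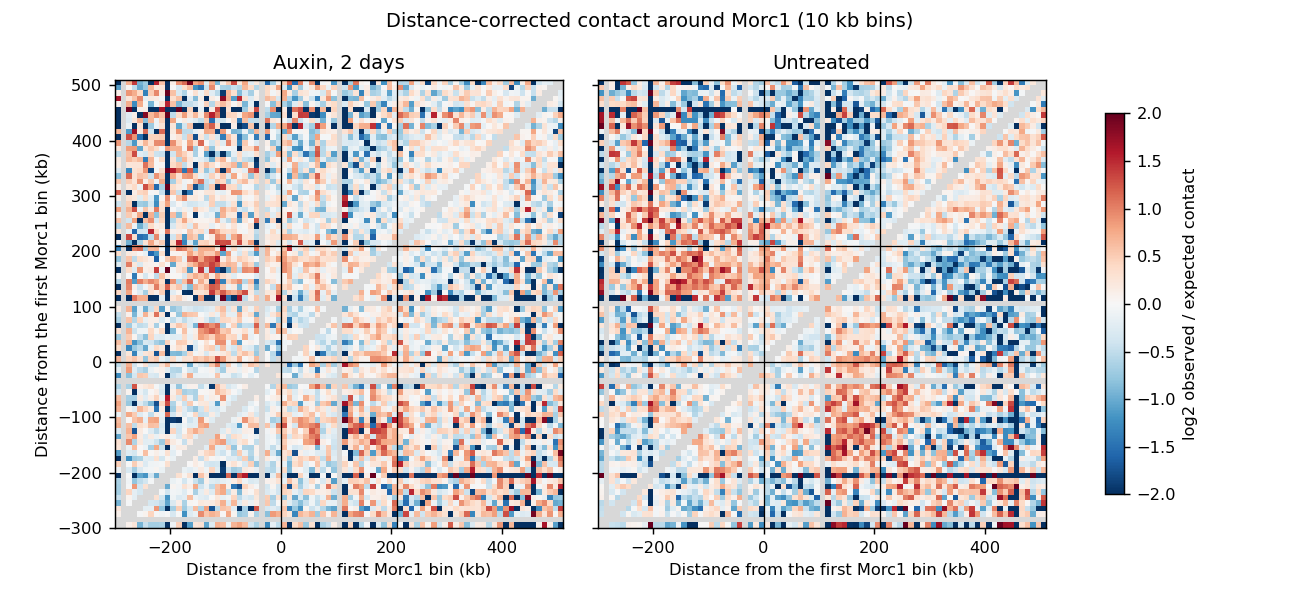
Distance-corrected contact around Morc1 in the auxin matrix (left) and the untreated matrix (right), as log2 of observed over expected contact for pairs of 10 kb bins at least 20 kb apart. Both axes give the distance from the first Morc1 bin in kb, black lines mark the ends of the 21 Morc1 bins, and grey marks closer pairs and bins with under 100 read pairs. The red field between the right part of the gene and the region to its left is broad in the untreated matrix (1.57 times the expected contact) and paler in the auxin matrix (1.25).

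The next question was which neighbours the gene touched. The left flank was taken as the 19 bins from 48240001 to 48430000, which hold Dppa4 and Dppa2, whose products bind DNA in pluripotent cells and early embryos. The right flank was the 19 bins from 48640001 to 48830000, with Trat1, which encodes an adaptor of the T cell receptor, and Retnlb, a resistin-like gene. As a whole, Morc1 leaned to the left. Its contact with the left flank was 1.13 in the auxin matrix (1.08 to 1.19) and 1.21 in the untreated matrix (1.15 to 1.27), with a log2 ratio of -0.092 (-0.19 to 0.0021). Its contact with the right flank was 0.904 in the auxin matrix (0.867 to 0.941) and 0.856 in the untreated matrix (0.813 to 0.90), with a log2 ratio of 0.078 (-0.016 to 0.17).

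These averages covered different values for the parts of the gene. The right part, which lies farther from Dppa2, had 1.25 times the expected contact with the left flank in the auxin matrix (1.18 to 1.34; 2483 pairs) and 1.57 times in the untreated matrix (1.46 to 1.68; 2896 pairs). The log2 ratio was -0.32 (-0.45 to -0.19), and it was -0.17 (-0.24 to -0.088) with read pairs that had not been balanced. The left part, which lies next to the flank, had 1.08 in the auxin matrix (1.02 to 1.13) and 1.00 in the untreated matrix (0.951 to 1.06), with a log2 ratio of 0.10 (-0.0047 to 0.21). Toward the other side, the left part touched the right flank at 1.03 in the auxin matrix (0.981 to 1.09) and 0.922 in the untreated matrix (0.873 to 0.974), a log2 ratio of 0.16 (0.056 to 0.27), and after balancing again it was 0.089 (-0.018 to 0.20). For the right part and the right flank the log2 ratio was 0.047 (-0.069 to 0.16). Reading the parts against the opposite flank was chosen after the values had been seen.

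The untreated contact of 1.57 between the right part and the left flank was above that of all 436 other stretches measured in the same way, which ran up to 1.55. That highest other value lies within the counting interval of Morc1 (1.46 to 1.68), and the rank is given for the main settings only. In the auxin matrix, 1 of the 436 was at or above the 1.25 of Morc1, and their median was 1.01. The log2 ratio of -0.32 was less unusual: 16 of the 436 were as low or lower, down to -0.62. The high untreated value was spread over the right part. Bin 14 had 1.14 times the expected contact with the left flank in the auxin matrix and 1.77 in the untreated matrix (log2 -0.63, -0.92 to -0.33). Bin 15 had 1.15 in the auxin matrix and 2.01 in the untreated matrix (-0.80, -1.26 to -0.35). Bin 20 had 1.13 in the auxin matrix and 1.64 in the untreated matrix (-0.54, -0.81 to -0.27). Bin 19 did not share this pattern, with 1.51 in the auxin matrix and 1.5 in the untreated matrix, and bin 21 had 1.34 in the auxin matrix and 1.11 in the untreated matrix.

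Over the 20 bins with at least 100 pairs, contact with the left flank was lower in the auxin matrix for 10 and higher for 10. The interval lay below 0 for 6 bins, which were bins 14, 15, 16, 17, 18 and 20, all in the right part. Over bins of the 436 other stretches, each with the flank of its own stretch, it lay below 0 for 6.96% and above 0 for 6.78%. In Morc1 it lay above 0 for 2 bins, bin 5 (log2 0.31, 0.087 to 0.54) and bin 6 (0.30, 0.048 to 0.55), both in the left part. Contact with the right flank had an interval above 0 for 5 bins and below 0 for none, against 5.78% above 0 and 5.55% below 0 over the other stretches. Bins recur in overlapping stretches, so these shares describe the interval. No adjustment was made for the number of bins or for their depth.

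**Figure D2:**
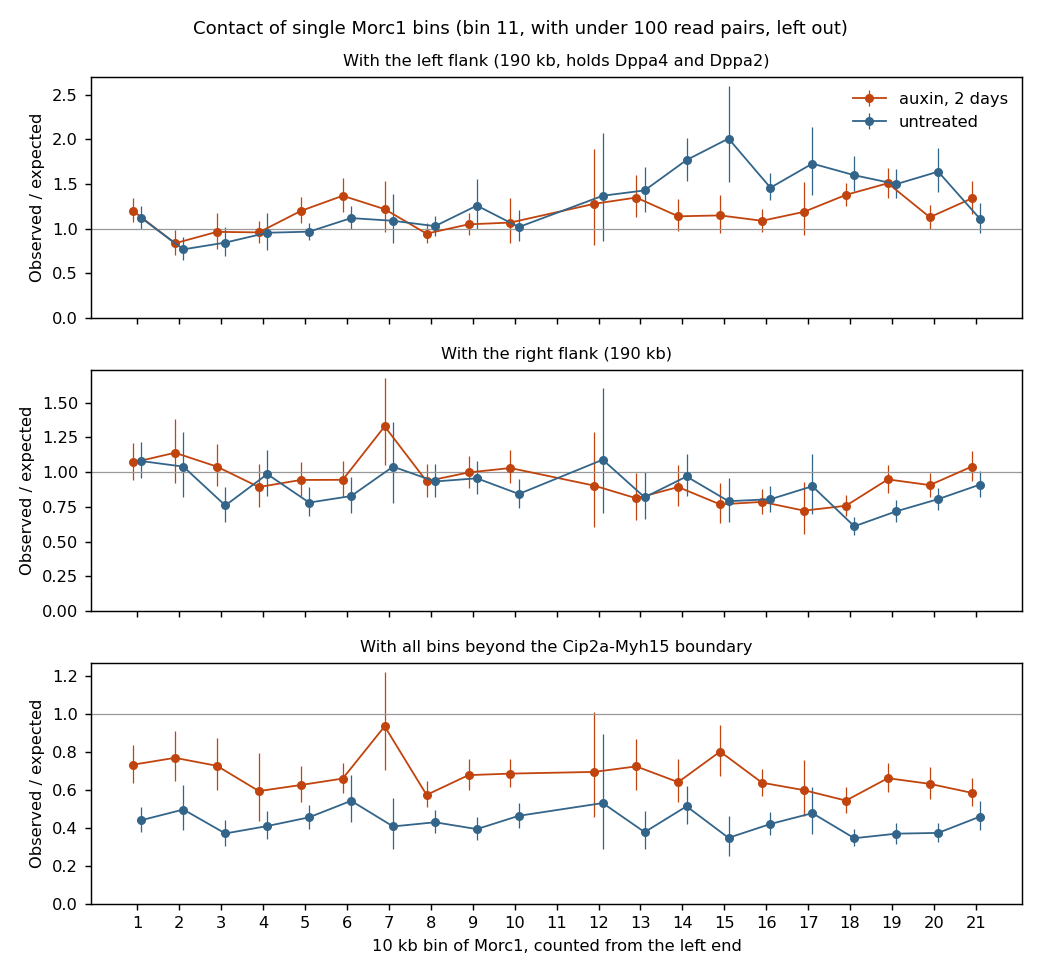
Observed over expected contact of each 10 kb bin of Morc1 (horizontal axis, counted from the left end) with the left flank, the right flank and all bins beyond the boundary between Cip2a and Myh15, in the auxin matrix and the untreated matrix. Points are values, vertical bars are 95% counting intervals, and bin 11 is left out. Untreated values with the left flank climb to 2.01 in bin 15, where the auxin value is 1.15, and all 20 bins lie higher in the auxin matrix beyond the boundary.

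Within the left flank, the bins of the Dppa genes and the rest were read separately. With the bins from Dppa4 to Dppa2, the right part of Morc1 had 1.64 times the expected contact in the auxin matrix (1.49 to 1.80; 697 pairs) and 1.83 in the untreated matrix (1.65 to 2.02; 767 pairs), and the log2 ratio of -0.16 (-0.36 to 0.039) held 0. With the rest of the flank it had 1.16 in the auxin matrix (1.07 to 1.26) and 1.5 in the untreated matrix (1.38 to 1.63), a log2 ratio of -0.37 (-0.53 to -0.21). The difference between these ratios was not tested. The left part of Morc1 had 1.39 with the Dppa bins in the auxin matrix (1.28 to 1.51) and 1.15 in the untreated matrix (1.05 to 1.25), a log2 ratio of 0.28 (0.10 to 0.45). The whole gene gave log2 ratios of -0.046 (-0.39 to 0.30) with Dppa2 and -0.022 (-0.24 to 0.20) with Dppa4.

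Insulation compares the contact between the 100 kb left and the 100 kb right of a bin with the average of such contact in the matrix, on a log2 scale. A low score means that few contacts passed over the bin. It was lower in the auxin matrix at 20 of the 21 Morc1 bins, against 48.0% of the 494 other bins with a score. The 20 include bin 12, where the scores were practically equal (difference -9.3e-05). Windows of neighbouring bins overlap, so that the 21 bins are not independent. The scores of Morc1 bins had a median of -0.0098 in the auxin matrix and 0.12 in the untreated matrix. The interval of the difference lay below 0 at 6 bins, in a pair of clusters, bins 5 to 7 and bins 17 to 19. It lay below 0 at 12.8% of the 494 other bins.

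At bin 6, starting at 48480001, the score was -0.17 in the auxin matrix and 0.076 in the untreated matrix, a difference of -0.24 (-0.45 to -0.041), and with a window of 50 kb it was -0.11 (-0.46 to 0.24). A difference at least as low was found at 18 of the other 494 bins. At bin 19, starting at 48610001 and overlapping Gm41458, the score was -0.20 in the auxin matrix and 0.024 in the untreated matrix (-0.22, -0.41 to -0.031), but with a window of 200 kb the difference was -0.012. These bins were picked after their values had been seen. The first bin, on the side of the Dppa genes, scored -0.13 in the auxin matrix and -0.12 in the untreated matrix. The last bin had the lowest auxin score of the gene, -0.27, against -0.19 in the untreated matrix, and the difference of -0.083 (-0.28 to 0.11) held 0. Contact across bin 6 within the gene, of bins 1 to 5 with bins 7 to 21, was 0.985 in the auxin matrix (0.903 to 1.07) and 1.1 in the untreated matrix (1.01 to 1.20), and the log2 ratio of -0.16 (-0.33 to 0.019) held 0 as well.

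**Figure D3:**
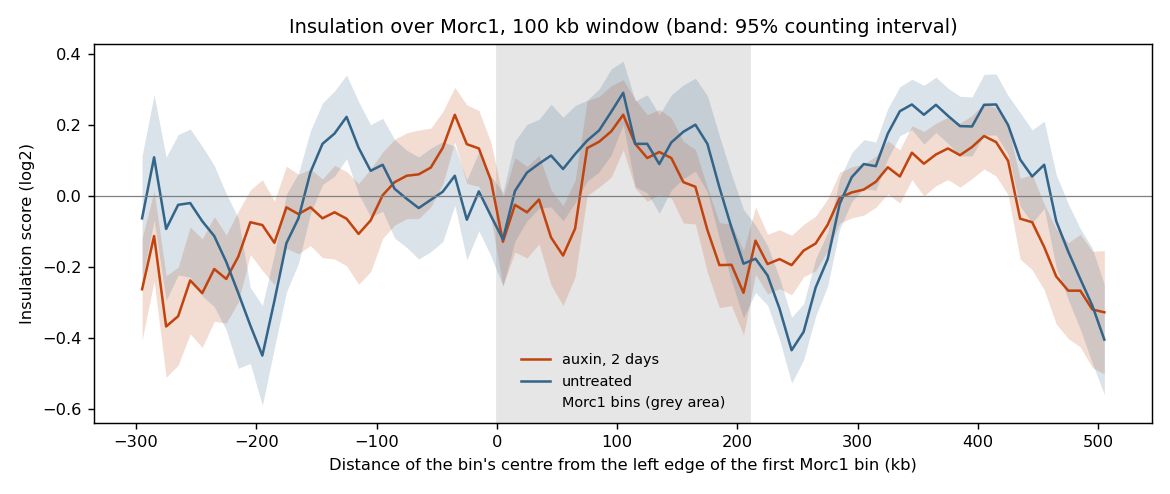
Insulation score (log2, 100 kb window) of 10 kb bins around Morc1 against distance from the left edge of the first Morc1 bin in kb, for the auxin matrix and the untreated matrix; lower means fewer contacts pass over the bin. Bands are 95% counting intervals and the grey area marks the 21 Morc1 bins, where the auxin line runs below the untreated line at 20 bins and dips to -0.17 at bin 6.

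The last question was how the gene touched the rest of the interval. Its contacts with the interval varied more in the untreated matrix than in the auxin matrix. The interval on each side of Morc1 was cut into 51 blocks of 100 kb, all with at least 20 read pairs with Morc1 in each matrix. Contact ranged from 0.382 to 1.62 in the auxin matrix and from 0.214 to 2.23 in the untreated matrix. The SD of log2 contact over blocks was 0.462 in the auxin matrix and 0.773 in the untreated matrix. This SD includes counting error. It is not given here for other stretches, so whether the difference is particular to Morc1 was not tested. Contact was higher in the auxin matrix by at least 0.5 on the log2 scale for 13 of the 51 blocks, where the same count over every stretch outside Morc1 gave 14.3%. It was lower by at least 0.5 for 3 blocks, against 8.56% over those stretches. The lower blocks depended on the scaling: 5 passed after balancing again (with 13 higher), 0 with unbalanced read pairs (11 higher), and 0 with the matrices scaled to the same sum and not distance-corrected (19 higher). Of the 13 higher blocks, 12 lay on the right. For the higher block at 49.34 to 49.44 Mb the interval held 0 (0.58, -0.006 to 1.16). The higher block at 49.44 to 49.54 Mb had a log2 ratio of 0.7, and 0.47 with bins under 100 pairs left out.

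Summed over all bins to the right of the boundary between Cip2a and Myh15, contact was below average in both matrices and higher in the auxin matrix. Cip2a encodes an inhibitor of protein phosphatase 2A, and Myh15 a myosin heavy chain. The boundary was taken as the bin with the lowest untreated insulation score between Cip2a and Myh15, so its place was chosen from untreated values. With all bins from that boundary on (the bin starting at 49020001), Morc1 had 0.653 times the expected contact in the auxin matrix (0.623 to 0.684; 5448 pairs) and 0.411 in the untreated matrix (0.389 to 0.433; 3468 pairs). The log2 ratio was 0.67 (0.57 to 0.77). The left part had 0.697 in the auxin matrix and 0.44 in the untreated matrix, and the right part 0.65 in the auxin matrix and 0.42 in the untreated matrix. All 20 bins with at least 100 pairs were higher in the auxin matrix, by log2 values of 0.28 to 1.21, and for 16 of them the interval lay above 0, against 27.8% of 317 other such bins to the left of the boundary. It lay below 0 for none of the 20, against 2.21% of the others. Depth was not matched here, and the median Morc1 bin held more pairs than the median of all 535 bins.

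Every one of 270 other stretches of 21 bins to the left of the boundary and not overlapping Morc1 had more contact across it than Morc1 in the untreated matrix, from 0.495 up. Their log2 ratios had a median of 0.25 and reached 0.64, against 0.67 for Morc1. Bin 11 entered that value with 4 auxin pairs and 1 untreated pair. Morc1 gave 0.62 (0.52 to 0.71) with bins under 100 pairs left out, and 0.57 (0.51 to 0.63) with unbalanced read pairs. Values of the other stretches at these settings are not given here, so the rank of the Morc1 ratio holds for the main settings only. In the auxin matrix 1 of the 270 was at or below Morc1. The left flank, with Dppa2 and Dppa4, had 0.706 in the auxin matrix and 0.505 in the untreated matrix (log2 0.48, 0.36 to 0.60). The right flank, which is nearer to the boundary, had 0.652 in the auxin matrix and 0.543 in the untreated matrix (0.26, 0.20 to 0.33). At the main settings, the log2 interval of Morc1 did not overlap that of the right flank, and it overlapped that of the left flank at its edge. The Morc1 interval reached lower with bins under 100 pairs left out (0.52 to 0.71) and after balancing again (0.45 to 0.70). The differences between stretches were not tested.

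**Figure D4:**
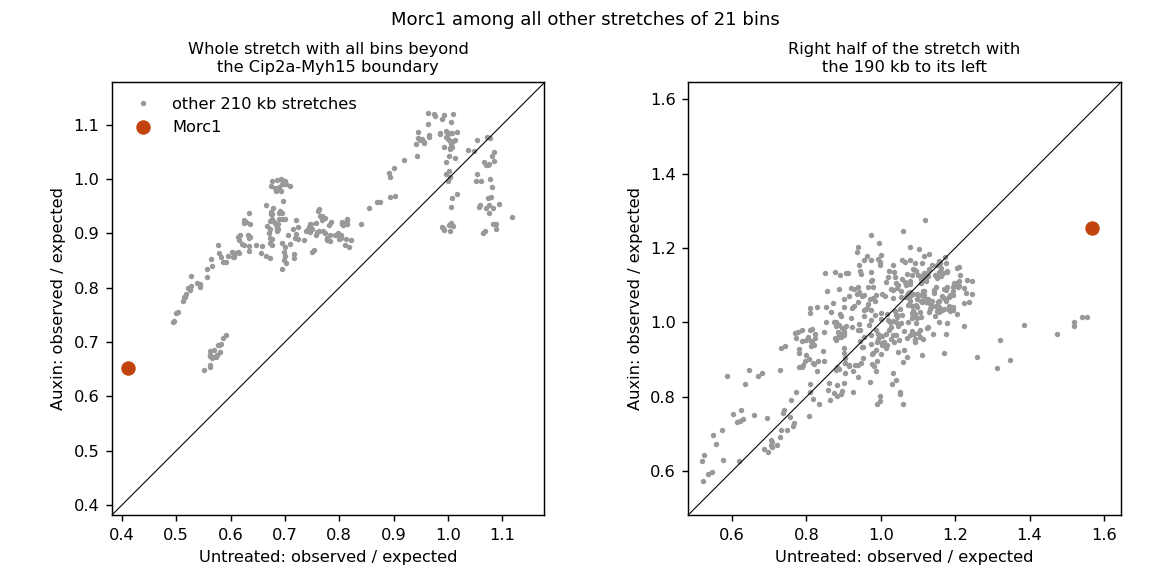
Observed over expected contact in the auxin matrix (vertical axis) against the untreated matrix (horizontal axis) for Morc1 and for other stretches of 21 bins that do not overlap it. On the left is contact with all bins beyond the boundary between Cip2a and Myh15 (270 stretches to its left), where Morc1 has the lowest untreated value, 0.411; on the right is contact of the right part of a stretch with the 19 bins to its left (436 stretches), where Morc1 has the highest untreated value, 1.57. The line marks equal values, and all values are at the main settings.

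The 3 blocks with the highest log2 ratio lay on the far side of that boundary. The block at 49.64 to 49.74 Mb, with part of Ift57, a gene of intraflagellar transport, had 0.685 in the auxin matrix (287 pairs) and 0.335 in the untreated matrix (179 pairs), a log2 ratio of 1.03 (0.57 to 1.49). The block at 49.24 to 49.34 Mb, with no protein-coding gene, had 0.428 in the auxin matrix and 0.214 in the untreated matrix (1.00, 0.63 to 1.38). The block at 49.14 to 49.24 Mb, with part of Myh15, had 0.462 in the auxin matrix and 0.246 in the untreated matrix (0.91, 0.48 to 1.34). The lowest auxin value of all blocks, 0.382, was also found there, at 49.54 to 49.64 Mb, where the untreated value was 0.277. Contact with these 4 blocks was below average in both matrices. Farther right, the block at 50.44 to 50.54 Mb, beyond the HMG-box gene Bbx, had 1.49 in the auxin matrix and 0.845 in the untreated matrix (0.82, 0.45 to 1.19).

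On the left, the blocks with the most untreated contact lay around Nectin3 and farther out, and the 3 blocks with the lowest log2 ratio were also there. The block at 46.43 to 46.53 Mb, with part of the cell adhesion gene Nectin3, was the highest in both, at 1.62 in the auxin matrix (507 pairs) and 2.23 in the untreated matrix (621 pairs), a log2 ratio of -0.46 (-0.72 to -0.21). The block at 45.73 to 45.83 Mb, with parts of Abhd10 and Phldb2, had 1.18 in the auxin matrix and 2.12 in the untreated matrix (-0.84, -1.26 to -0.42). The block at 45.93 to 46.03 Mb, with parts of Phldb2 and Plcxd2, had 1.13 in the auxin matrix and 1.74 in the untreated matrix (-0.63, -0.96 to -0.30). The block at 46.13 to 46.23 Mb, with Gm4737, had 0.889 in the auxin matrix and 1.30 in the untreated matrix (-0.54, -0.91 to -0.18). The block between these, at 46.23 to 46.33 Mb, went the other way, with 1.42 in the auxin matrix and 0.896 in the untreated matrix (0.66, 0.0073 to 1.31). That value rested on bins with under 100 pairs: without them it was 1.04 in the auxin matrix and 0.913 in the untreated matrix (0.19, -0.22 to 0.59), and 11 blocks were higher by the limit. From Morc1 up to the Nectin3 blocks, every left-hand block gave a log2 ratio within 0.5 of 0.

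**Figure D5:**
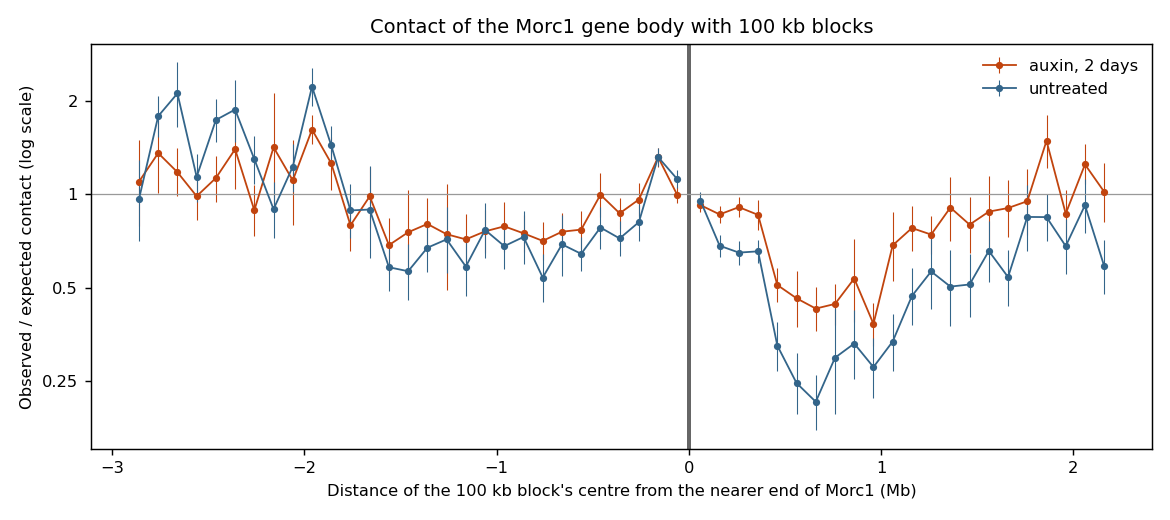
Observed over expected contact (log scale) of the Morc1 gene body with 51 blocks of 100 kb, against the distance of each block's centre from the nearer end of the gene in Mb, negative to the left, in the auxin matrix and the untreated matrix. Points are values and vertical bars are 95% counting intervals. The untreated line runs from 0.214 on the right to 2.23 near Nectin3 on the left, and the auxin line stays between 0.382 and 1.62.

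By distance, contact on the right lay below contact on the left in both matrices from 110 kb outward. At 510 to 1000 kb, contact on the right was 0.48 in the auxin matrix (0.441 to 0.521) and 0.308 in the untreated matrix (0.277 to 0.34), and contact on the left was 0.802 in the auxin matrix (0.751 to 0.854) and 0.69 in the untreated matrix (0.636 to 0.747). From 260 kb outward every right-hand distance range was higher in the auxin matrix, with log2 ratios of 0.46 (0.34 to 0.57) at 260 to 500 kb, 0.64 (0.45 to 0.83) at 510 to 1000 kb, 0.66 (0.51 to 0.80) at 1010 to 2000 kb and 0.54 (0.32 to 0.75) at 2010 to 5000 kb. Right next to the gene, at 20 to 100 kb, contact on the right was lower in the auxin matrix (0.88, against 0.991 in the untreated matrix; log2 -0.17, -0.32 to -0.023). On the left the ratio was 0.22 (0.069 to 0.36) at 510 to 1000 kb and turned to -0.29 (-0.44 to -0.14) at 2010 to 5000 kb.

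Single genes were read in the same way. Of 25 listed genes, Morc1 among them, 21 others were placed in the interval and had at least 20 pairs with Morc1 in each matrix; Cd200, Zbed2 and Guca1c were not analysed here. By the limit of 0.5 on the log2 scale, 5 genes were higher in the auxin matrix, where 17.8% of the pairs of listed genes without Morc1 were, and 5 were lower, where 12.7% of those pairs were. The median log2 ratio of the 21 was -0.022. Both germline and early embryo genes, Dppa2 and Dppa4, stayed within the limit.

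The 5 lower genes all came from the far left and from the list of other genes. They lie close together, between 45656309 and 46010413, and some share bins, so they are not separate observations. They also overlap low blocks described above. Abhd10, a hydrolase gene, had 1.17 in the auxin matrix (66 pairs) and 2.26 in the untreated matrix (89 pairs), a log2 ratio of -0.94 (-1.45 to -0.44). Tmprss7, a membrane protease gene, had 1.16 in the auxin matrix and 1.96 in the untreated matrix (-0.76, -1.22 to -0.29). Phldb2 gave -0.54 (-0.82 to -0.27), Plcxd2 -0.53 (-0.93 to -0.14) and Tagln3 -0.55 (-1.44 to 0.33). Nectin3 itself had 1.46 in the auxin matrix (1.19 to 1.77) and 1.81 in the untreated matrix (1.60 to 2.04), and its log2 ratio of -0.31 (-0.64 to 0.019) held 0. With bins under 100 pairs left out, that ratio was -0.46 (-0.69 to -0.22).

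Of the higher genes, Myh15 had 0.489 in the auxin matrix (0.44 to 0.541; 755 pairs) and 0.291 in the untreated matrix (0.249 to 0.338; 445 pairs), a log2 ratio of 0.75 (0.49 to 1.01). Ift57 had 0.747 in the auxin matrix and 0.399 in the untreated matrix (0.91, 0.42 to 1.39). Cip2a had 0.994 in the auxin matrix and 0.69 in the untreated matrix (0.53, 0.24 to 0.82). Among the 3 resistin-like genes, whose products are small and secreted, Retnla had 0.915 in the auxin matrix (125 pairs) and 0.561 in the untreated matrix (88 pairs) (0.70, 0.23 to 1.18), while Retnlb (-0.072, -0.62 to 0.47) and Retnlg (0.023, -0.52 to 0.57) stayed within the limit. Among the 4 genes of lymphocytes and immune cell surfaces that were placed, Gcsam passed the limit on 33 auxin and 22 untreated pairs, with a log2 ratio of 0.88 (-0.18 to 1.95), and Trat1 (0.36, 0.21 to 0.52), Cd47 and Cd96 did not.

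A smaller share of the contacts of Morc1 stayed inside the gene in the auxin matrix. Of the Morc1 contact over 20 kb, 13.1% (12.4 to 13.7) linked Morc1 bins with each other in the auxin matrix and 15.8% (15.1 to 16.5) in the untreated matrix, a log2 ratio of -0.27 (-0.37 to -0.18). This share is not distance-corrected. The 436 other stretches had a median of 12.0% in the auxin matrix and 12.7% in the untreated matrix, with a median log2 ratio of -0.11, and 31 were as low as Morc1 or lower. With all bins together, Morc1 had 0.887 times the expected contact in the auxin matrix and 0.804 in the untreated matrix, a log2 ratio of 0.14 (0.10 to 0.18). Balancing had not made the rows of the matrices equal: the mean row sum of the Morc1 bins with at least 100 pairs was 1455 in the auxin matrix and 1319 in the untreated matrix, while other such bins averaged 1473 in the auxin matrix and 1427 in the untreated matrix. The part of this in the results was not tested, and after balancing again the ratio over all bins was 0.067 (0.0088 to 0.12) and the one across the Cip2a to Myh15 boundary was 0.58 (0.45 to 0.70).

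Contact profiles were compared with those of 12 other protein-coding genes that cover at least 5 bins, ranked by the mean of the correlations in both matrices. Dppa2 and Dppa4 are shorter than that and were not compared. Over blocks of 50 kb at least 200 kb from both genes, the correlation with the profile of Trat1 ranked first, with r = 0.28 in the auxin matrix and 0.67 in the untreated matrix (91 blocks). With Dzip3, a ubiquitin ligase gene to the right, it was 0.46 in the auxin matrix and 0.34 in the untreated matrix (87 blocks), and with Cd47, which encodes a ligand that restrains phagocytes, 0.25 in the auxin matrix and 0.20 in the untreated matrix (84 blocks). The mean r was 0.47 for Trat1, 0.40 for Dzip3 and 0.22 for Cd47. In the untreated matrix alone Myh15, at 0.35, was above Dzip3 and Cd47. The blocks share a library and are not independent. The profile of Morc1 correlated between the auxin and the untreated matrix with r = 0.78 and rho = 0.78 over 94 blocks, against r of -0.028 to 0.60 for the 12 other genes, which hold different numbers of read pairs. By rank the closest was Trat1, with rho = 0.72, then Bbx with 0.56 and Dzip3 with 0.52. Phldb2 and Bbx, which are as long as Morc1 or longer, had r of 0.37 (Phldb2) and 0.39 (Bbx).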

How the data were processed

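The authors deposited 2 matrices of contact signal in 10 kb bins, which per the deposited names hold combined replicates balanced by iterative correction, a step that evens out coverage between bins. The signal has no unit. The submitters' processing notes name mm10 and Trim Galore. Aligner, read filters and balancing tool were not given in the sources used here. Per the labels' protocols, libraries of the 14 labelled samples were cut with MboI and enriched for 45488946 to 50879849 on chromosome 16. No source used here ties the matrices to those libraries.

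Deposited values split into whole read pairs multiplied by 1 factor per bin. With the factors estimated, 99.92% of nonzero auxin values and 100% of nonzero untreated values came within 0.02 of a whole number, giving 14 to 4150 pairs per bin in the auxin matrix and 14 to 4348 in the untreated matrix. For each bin the smallest whole numbers were taken, so that in a bin with few contacts a whole multiple of the pairs gives the same values. The sparsest auxin bin, with 14 pairs, lies in Dzip3. Intervals are exact Poisson intervals on the effective number of pairs (for log2 ratios a normal approximation). They cover counting error only, since pairs copied from 1 molecule are not independent and replicates were combined. The computation was run on simulated data with counting error alone and the same bin factors in both matrices. Differences in balancing between the matrices were therefore not covered, and the outcome of that run is not given here. Areas used pairs at least 20 kb apart.

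Genes were placed with a RefSeq table of GRCm38.p6 (the mm10 assembly), which gives no strand, so ends are called left and right. The named items were Morc1, its parts and bins, the listed genes, the blocks of 100 kb with the 3 highest and 3 lowest log2 ratios and the 3 highest values, and the 3 genes with the most similar profile. The members, lists and rules were chosen with earlier results of these data known. Python 3.11.15, numpy 2.4.6, pandas 2.3.3, scipy 1.17.1 and matplotlib 3.10.9 were used.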

Additional observations from a re-analysis of the deposited data

How the results depend on the processing

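Of 175 alternative values for 22 results, 165 stayed within the counting interval, or for the block count within 1.5 times: another distance limit or expected contact, sparse bins left out, balancing again, no balancing, 19 inner bins, other insulation windows. No ratio whose interval excluded 0 changed sign. Several intervals near 0 moved across it at the same sign: some alternatives excluded 0 for the gene body, either flank, Nectin3, the far left and the ends' insulation, and some held 0 for the left part with the right flank and for bins 6 and 19. After balancing again the ratio was -0.19 within the gene, -0.27 within its left part, -0.21 between its parts, 0.067 over all bins and -0.39 for the share inside the gene. With pairs at least 50 kb apart it was -0.27 within the left part. Without balancing it was -0.17 for the right part with the left flank. Scaled to the same sum and not distance-corrected, the ratio for bins over 1 Mb to the left was 0.077, against -0.079. At a log2 limit of 0.3, 30 blocks passed, against 16. With a window of 200 kb the insulation difference at bin 19 was -0.012. The cause of these shifts was not tested. Ratios of the parts with the opposite flank, over all bins, and at bins 6 and 19 were added after seeing the data. Depth limits single bins most: bin 11 held 48 auxin and 45 untreated pairs. No paired analysis was possible because each condition is 1 pooled matrix.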
